A study of Bos taurus with 6 samples.

Results

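The myosin light chain genes were followed in the longissimus dorsi muscle, the long muscle of the loin, of 3 Shandong black cattle (B1, B2 and B3) and 3 Luxi cattle (L1, L2 and L3), all aged 18 months. The members were the 10 genes MYL1, MYL2, MYL3, MYL4, MYL6, MYL6B, MYL9, MYL12A, MYL12B and MYLPF, matched by the gene name in the deposited files, out of 18010 genes listed. Luxi cattle is a yellow breed native to Shandong, and it is also a parent of Shandong black cattle, which was bred from crosses with Japanese black and Bohai black cattle. No treatment was given. The animals of the breeds were supplied by different companies, so breed and supplier cannot be told apart.

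Myosin is the motor protein of the thick filament. Each of its heavy chains carries a pair of light chains on the neck of the head, one essential and one regulatory, which stiffen the lever arm and tune contraction. Fast fibres use the essential chain MYL1 and the regulatory chain MYLPF, slow fibres use MYL3 or MYL6B together with MYL2, and MYL6, MYL9, MYL12A and MYL12B serve smooth muscle and non-muscle myosins.

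Levels are gene FPKM (fragments normalised to transcript length and to the size of the library). They are per length, so that genes can be compared. The libraries held 14.1 to 14.6 aligned gigabases in Shandong black cattle and 17.5 to 17.99 in Luxi cattle. The skeletal muscle markers were high in every animal, and TNNT2, the 1 heart marker with a value, lay between 0.298 and 2.80 FPKM. The library of L1 stood apart in some genes. Its FPKM of ACTA1, the skeletal actin, was 12237 against 32188 to 54910 in the other 5 animals. Its FPKM of the mitochondrial gene COX1 was 22478 against 8570 to 10759. The skeletal muscle markers did not all follow ACTA1. DES (174) and CKM (1832) were also lowest in L1, but NEB (590) was highest there. MB (7894) and TTN (625) of L1 lay within the range of the other animals. XIST, the RNA that coats the inactive X chromosome of females, had an FPKM of 4.83 to 14.0 in Shandong black cattle and of 0 to 0.207 in Luxi cattle. The labels used here give no sex, so the breed cannot be told apart from what XIST marks.

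Luxi cattle were compared with Shandong black cattle by limma, with Benjamini-Hochberg adjustment over the 9781 genes tested. To be called, a gene needed a log2 fold change of 1 or more in either direction together with an adjusted p-value below 0.05. That rule called 2.57% of all genes tested, 1.54% higher and 1.02% lower in Luxi cattle. It called 0 of the 9 light chain genes tested, and 7 of the 9 had an unadjusted p under 0.05, as did 21.8% of all genes. MYL4 was too low to be tested. MYL12B passed the filter through Luxi cattle only, which favours a higher value there. It is 1 of the genes in each count of 6 or 7 of the 9 given here, and it is no support for them. In 6 of the 9 the FPKM of the breeds did not overlap, as in 29.1% of all genes tested: MYL3, MYL9 and MYL12B lay higher in Luxi cattle (20% of all genes) and MYL2, MYL6B and MYL12A lower (9.13% of all genes). The log2 fold change was at least 1 in size for 7 of the 9, against 8.06% of all genes tested. Its median over the 9 genes was 0.59, beside 0.13 over all genes, and median-of-ratios size factors brought the median of all genes to 0.02.

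**Figure D1:**
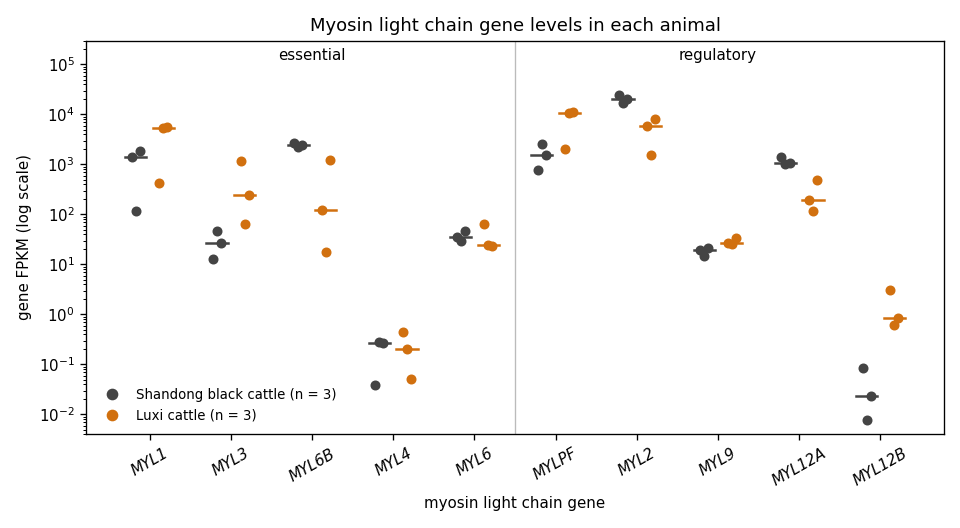
Gene FPKM (log axis) of the 10 myosin light chain genes in each animal, with points for animals and a bar at the median of each breed. MYL2 lies lower in every Luxi animal than in every Shandong black animal, and MYL4 lies under 0.5 FPKM in all 6.

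In Shandong black cattle, MYL2 was the most abundant light chain by far, with a mean of 20882 FPKM, and the next, MYL6B, had 2473. Its range did not overlap that of MYL6B, whereas the ranges of MYL6B and MYLPF, of MYLPF and MYL12A, and of MYL12A and MYL1 overlapped. A clear step followed to MYL6 (mean 37.3 FPKM), MYL3 (28.7) and MYL9 (18.7), whose neighbours in that order overlapped. In Luxi cattle the order was MYLPF (7893 FPKM), MYL2 (5086), MYL1 (3822), MYL3 (496), MYL6B (462) and MYL12A (266), and the range of each overlapped that of the next as far as MYL12A, which did not overlap MYL6. The 10 genes together made up 9.43, 6.58 and 7.92% of the library FPKM in B1, B2 and B3 and 3.32, 4.30 and 6.36% in L1, L2 and L3.

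The regulatory chains were considered first. MYL2, the slow and ventricular regulatory light chain, maps to the minus strand of chromosome 17, from 54706768 to 54714591 in ARS-UCD1.2, the build of all coordinates here. Its FPKM was 24909, 16912 and 20824 in B1, B2 and B3 and 5810, 1513 and 7936 in L1, L2 and L3. Every Luxi animal lay below every Shandong black animal, and the spread was wider among the Luxi cattle. MYL2 ranked second of all genes in each Shandong black animal and held place 5, 24 and 5 in L1, L2 and L3. The log2 fold change was -2.32 (SE 0.73, 95% interval -4.03 to -0.62), and MYL2 was not called (limma adjusted p = 0.131, exact two-sided permutation p = 0.1, the smallest that 3 animals against 3 allow). The annotation holds 2 transcripts, which differ in their start and in an intron within the last exon. The form with that intron kept carried 16711 to 23817 FPKM in Shandong black cattle and 1466 to 7819 in Luxi cattle. The other form overlapped between the breeds, at 1092, 201 and 904 FPKM in B1, B2 and B3 and 250.01, 47.0 and 118 in L1, L2 and L3.

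MYLPF, the fast regulatory light chain, lies on chromosome 25 from 26559395 to 26561857 and is listed as MYL11 in the RefSeq gene table of a later assembly. Its FPKM was 779, 2598 and 1519 in B1, B2 and B3 and 2065, 10464 and 11149 in L1, L2 and L3. L2 and L3 were far above the Shandong black cattle, while L1 lay below B2, so the breeds overlapped. The breed difference was 2.096 on the log2 scale (SE 0.80, 95% interval 0.22 to 3.97) and was not called (limma adjusted p = 0.187, exact permutation p = 0.2). Without L1 it was 2.89 and was called (limma adjusted p = 0.0355). MYLPF was not called with any other animal left out, and without B1 the difference was 1.65 (limma adjusted p = 0.458).

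The slow share of the regulatory chains, MYL2 over the sum of MYL2 and MYLPF, does not depend on the scaling between libraries. It was 97.0, 86.7 and 93.2% in B1, B2 and B3 and 73.8, 12.6 and 41.6% in L1, L2 and L3. The slow chain thus made up most of the pair in all Shandong black cattle and in L1, and less than MYLPF in L2 and L3. Shandong black cattle had a mean of 92.3% ± 5.20 (SD, n = 3) and Luxi cattle one of 42.7% ± 30.6 (SD, n = 3), and the breeds did not overlap (exact two-sided permutation p = 0.1, adjusted over the 4 shares and ratios p = 0.133). From the coverage on exons the share was 96.6, 85.4 and 92.5% against 71.7, 11.5 and 39.0%.

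**Figure D2:**
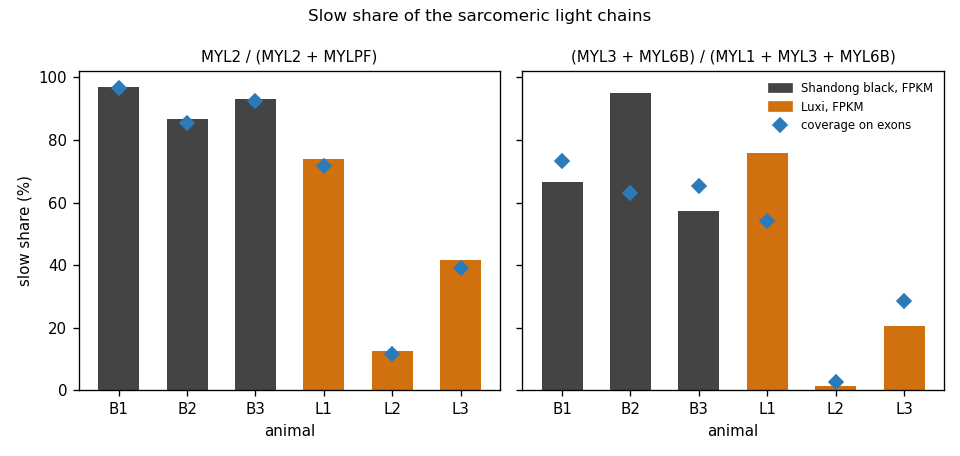
Slow share (%) of the regulatory (left) and essential (right) sarcomeric light chains in each animal, as bars from gene FPKM and diamonds from the coverage on exons, with Shandong black cattle in grey and Luxi cattle in orange. The regulatory share is 86.7% or more in each Shandong black animal and 73.8% or less in each Luxi animal.

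Among the essential chains, MYL1, the fast one, lies on chromosome 2 from 98099881 to 98126181 on the minus strand. Its FPKM was 1385, 119 and 1864 in B1, B2 and B3 and 417, 5332 and 5715 in L1, L2 and L3. B2 and L1 were each far below the other animals of their breed, and the breeds overlapped. This gave a log2 fold change of 1.79 (SE 1.35, 95% interval -1.37 to 4.94) and was not called (limma adjusted p = 0.464).

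The 2 low values coincided with transcripts that entered no gene. In B2 and L1, and in no other animal, StringTie assembled 2 same-strand transcripts each of 11813 to 12159 bases that started at the long start of MYL1 and ran past its 3′ end. Fewer than 50% of their bases lay on MYL1 exons, so the rule on assembled transcripts left them out. They held 250.3 FPKM in B2 and 219.9 in L1. The 3 internal exons common to all 4 annotated MYL1 transcripts (98102928 to 98103005, 98103460 to 98103633 and 98106868 to 98107011) were therefore also measured directly, with every same-strand transcript counted, a measure chosen after the values were seen. Their coverage per aligned gigabase was 2246, 4075 and 2994 in B1, B2 and B3 and 3938, 8220 and 8886 in L1, L2 and L3. B2 was then the highest of its breed, and L1 lay just under B2. By this measure the log2 difference was 1.13 (exact permutation p = 0.2), and by coverage on all exons it was 1.15 (limma adjusted p = 0.203).

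**Figure D3:**
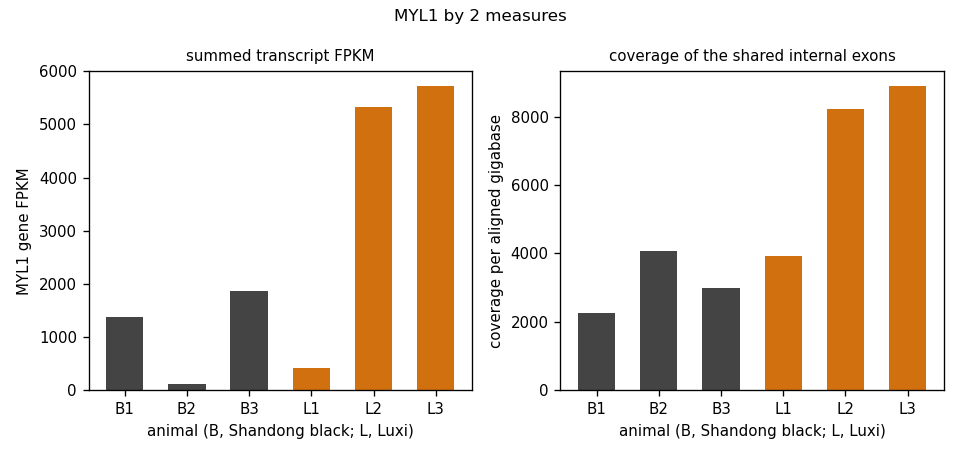
MYL1 in each animal as gene FPKM (left) and as coverage per aligned gigabase of the 3 internal exons shared by its transcripts (right). B2 and L1 stand low at 119 and 417 FPKM on the left, and at 4075 and 3938 on the right.

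MYL1 has separate starts for a long protein (MLC1F) and a short protein (MLC3F), and the annotation holds 2 transcripts of each. By transcript FPKM the short start carried 1.01, 11.7 and 3.53% of MYL1 in B1, B2 and B3 and 74.8, 12.6 and 15.2% in L1, L2 and L3 (exact permutation p = 0.1, adjusted over the 4 shares and ratios p = 0.133). These shares do not count the transcripts left out in B2 and L1, which use the long start. From the coverage of the first exons, those transcripts included, the short share was 4.42, 0.689 and 5.58% against 12.4, 7.49 and 17.5%, which gave means of 3.56% ± 2.56 for Shandong black and 12.5% ± 5.02 for Luxi cattle (SD, n = 3 each) (exact permutation p = 0.1). The 2 first-exon stretches, of 245 and 68 bases, were covered less than the shared internal exons in every animal. In B1 they stood at 318 and 14.7 per aligned gigabase, beside 2246 on those internal exons. This share therefore rests on only part of the coverage of the gene. The Luxi animals lay above all Shandong black animals by both measures. The difference between the means was 28.8 percentage points by FPKM, 8.48 without L1 and 8.92 by first-exon coverage.

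MYL3, the slow and ventricular essential light chain, lies on chromosome 22 from 52638286 to 52644068. Its FPKM was 13.1, 46.4 and 26.6 in B1, B2 and B3 and 1180, 63.5 and 244 in L1, L2 and L3. All Luxi animals lay above all Shandong black animals, although L2 was close to B2. The difference was 3.33 on the log2 scale (SE 0.99, 95% interval 0.998 to 5.66) and was not called (limma adjusted p = 0.119, exact permutation p = 0.1). Without L1, which held the highest value, it was 2.25.

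MYL6B, an essential light chain of slow skeletal muscle, lies on chromosome 5 from 57165320 to 57169503 on the minus strand, beside MYL6. Its FPKM was 2734, 2224 and 2462 in B1, B2 and B3 and 124, 18.02 and 1245 in L1, L2 and L3. The Shandong black cattle differed among themselves by 1.23-fold and the Luxi cattle by 69.1-fold, without overlap between the breeds. MYL6B had a log2 fold change of -4.10 (SE 1.32, 95% interval -7.21 to -1.0003), the largest in size of the 9 genes, and was not called (limma adjusted p = 0.135, exact permutation p = 0.1). Without L3 it was -5.66 and was called (limma adjusted p = 0.0454). MYL6B was not called with any other animal left out, and without L2 the difference was -2.64 (limma adjusted p = 0.208).

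MYL3 and MYL6B thus differed between the breeds in opposite directions, although both are slow essential chains. MYL6B exceeded MYL3 by 209-fold, 48.0-fold and 92.4-fold in B1, B2 and B3 and by 5.11-fold in L3, while MYL3 exceeded MYL6B by 9.53-fold in L1 and 3.53-fold in L2. Their joint share of the sarcomeric essential chains, over MYL1, MYL3 and MYL6B, was 66.5, 95.04 and 57.2% in B1, B2 and B3 and 75.7, 1.51 and 20.7% in L1, L2 and L3. The breeds overlapped through L1 (exact permutation p = 0.3). From the coverage on exons, in which the MYL1 reads of B2 and L1 are counted, it was 73.4, 63.0 and 65.2% against 54.1, 2.58 and 28.5%. The breeds did not overlap by that measure (exact permutation p = 0.1). It divides by the merged length of a gene's exons, which scales each gene differently. In B1 it was 0.577 of FPKM for MYL1, 0.802 for MYL6B and 1.00 for MYL3. The share thus rose in B1, B3, L2 and L3 although no MYL1 transcripts were left out there.

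Each myosin head carries an essential and a regulatory chain in equal number, so the ratio of their transcripts was compared. The log2 ratio of MYL1, MYL3, MYL6B and MYL4 to MYLPF and MYL2 was -2.64, -3.03 and -2.36 in B1, B2 and B3 and -2.19, -1.15 and -1.41 in L1, L2 and L3. Regulatory transcripts exceeded essential ones in all 6 animals, and by more in each Shandong black animal (exact permutation p = 0.1, adjusted over the 4 shares and ratios p = 0.133). From the coverage on exons, which scales each gene differently from FPKM, the means were -2.76 ± 0.17 and -1.88 ± 0.23 (SD, n = 3 each).

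MYL4, the atrial and embryonic essential chain, lies on chromosome 19 from 46285322 to 46300144. Its FPKM ran from 0.0395 to 0.280 in Shandong black cattle and from 0.0507 to 0.437 in Luxi cattle. It was close to 0 in every animal and the breeds overlapped.

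MYL12A, a non-muscle regulatory light chain, lies on chromosome 24 from 37403043 to 37413273. Its FPKM was 1408, 1008 and 1083 in B1, B2 and B3 and 192, 116 and 490 in L1, L2 and L3. The breeds stood clearly apart, and the mean of Shandong black cattle was 4.39 times that of Luxi cattle. On the log2 scale the difference was -2.37 (SE 0.55, 95% interval -3.66 to -1.09). Its adjusted p was the lowest of the 9 genes, yet above the threshold (limma adjusted p = 0.0681, exact permutation p = 0.1). It passed without L3 (-2.94, limma adjusted p = 0.0430) but with no other animal left out, and stood at -1.91 without L2 (limma adjusted p = 0.134). It also passed from the coverage on exons (-2.13, limma adjusted p = 0.0438), which is on another scale than FPKM. L2 stood at 164 in that coverage and at 116 in FPKM. The ratio of the 2 measures was 1.41 in L2 and 0.844 to 0.855 in the other animals.

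The annotated transcripts of MYL12A fall into those that start upstream, with first exons at 37403043 or 37403138, and one that starts 4711 bases further on, at 37407754. This split was examined after the values were seen and was not tested. The downstream form held 1165, 742 and 893 FPKM in B1, B2 and B3 and 1.01, 22.3 and 233 in L1, L2 and L3. The upstream forms held 243, 267 and 190 FPKM in B1, B2 and B3 and 191, 93.7 and 256 in L1, L2 and L3. The breeds did not overlap in the downstream form and overlapped in the sum of the upstream forms. Of the 2 upstream transcripts, the one from 37403043 overlapped between the breeds, and the minor one from 37403138 did not, at 42.9, 33.5 and 40.3 FPKM in B1, B2 and B3 and 4.33, 16.4 and 9.43 in L1, L2 and L3. The downstream form made up 82.8, 73.6 and 82.5% of the gene in B1, B2 and B3 and 0.525, 19.3 and 47.7% in L1, L2 and L3. From the coverage of the first exons these shares were 79.8, 70.2 and 77.5% and 0.524, 5.21 and 47.7%. Those exons were covered less than the gene as a whole in every animal. In B1 the upstream and downstream first exons stood at 32.0 and 127 per aligned gigabase, beside 1188 on all exons.

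**Figure D4:**
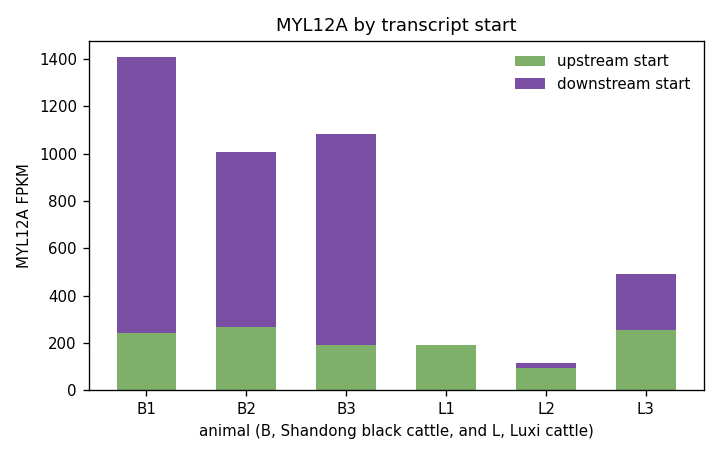
FPKM of MYL12A in each animal, stacked by transcript start. The downstream start reaches 742 to 1165 FPKM in Shandong black cattle and 233 FPKM or less in Luxi cattle, while the upstream start ranges from 93.7 to 267 FPKM over all 6 animals.

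MYL2, MYL6B and MYL12A shared an order of the animals. B1 was highest and B2 lowest among the Shandong black cattle, and L3 was highest and L2 lowest among the Luxi cattle, for all 3 genes. The order was not particular to them. MYOZ2 and CASQ2, of the slow fibre partners listed below, had it too, and the other genes of that list did not. The share of all genes with this order was not counted, and the order was not tested. MYL12A stood at 5.20 to 5.96% of MYL2 in the Shandong black cattle and at 3.30, 7.67 and 6.17% in L1, L2 and L3. MYL6B stood at 11.0 to 13.2% of MYL2 in the Shandong black cattle and at 2.13, 1.19 and 15.7% in L1, L2 and L3.

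MYL12B, whose protein is nearly identical to that of MYL12A, follows it on the same strand from 37417773 to 37434622. Its FPKM was 0.0844, 0.00786 and 0.0239 in B1, B2 and B3 and 3.10, 0.606 and 0.863 in L1, L2 and L3. MYL12B was below MYL12A in each animal, by 61.9-fold or more, and reads shared by the neighbours may be split between them, so its level is uncertain. Same-strand transcripts at the locus that entered no gene held 1.34 FPKM in L2 and 2.81 in L3, and an antisense transcript signal of 0.642 FPKM was seen in B2. From the coverage on exons MYL12B stood at 3.35, 0.680 and 0.860 in L1, L2 and L3. The log2 fold change on log2(FPKM + 1) was 1.15 (SE 0.35) and was not called (limma adjusted p = 0.122), and with a pseudocount of 0.1 it was 3.26.

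MYL9, the smooth muscle regulatory chain, lies on chromosome 13 from 65647900 to 65655870. Its FPKM was 19.5, 14.7 and 21.8 in B1, B2 and B3 and 26.5, 25.6 and 33.1 in L1, L2 and L3. The Luxi animals lay above the Shandong black animals by a small margin. Luxi cattle exceeded Shandong black cattle by a log2 fold change of 0.59 (SE 0.23, the smallest of the 9 genes, 95% interval 0.04 to 1.13), below the fold threshold (limma adjusted p = 0.200). Of the 7 smooth muscle markers 6 were tested and 0 were called, and their summed FPKM was 105 to 119 in Shandong black cattle and 117 to 212 in Luxi cattle.

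MYL6, the essential chain of smooth muscle and non-muscle myosin, lies on chromosome 5 from 57161868 to 57165070 on the minus strand. Its FPKM was 35.4, 29.9 and 46.5 in B1, B2 and B3 and 63.9, 24.2 and 23.0 in L1, L2 and L3, and the breeds overlapped. The log2 fold change was -0.15 (95% interval -1.13 to 0.83, limma adjusted p = 0.860), and its sign turned without B3, L2 or L3, with reference transcripts alone and with the coverage on exons. Transcripts holding the 45-base exon at 57162761 to 57162805, which is skipped in the other annotated form, made up 99.9, 72.0 and 84.0% of MYL6 in B1, B2 and B3 and 40.8, 54.3 and 97.9% in L1, L2 and L3. In L3 a further 12.5 FPKM of same-strand transcripts at the locus entered no gene and is in neither the 23.0 FPKM nor the share, and the coverage on exons of L3 was 45.2 per aligned gigabase.

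**Figure D5:**
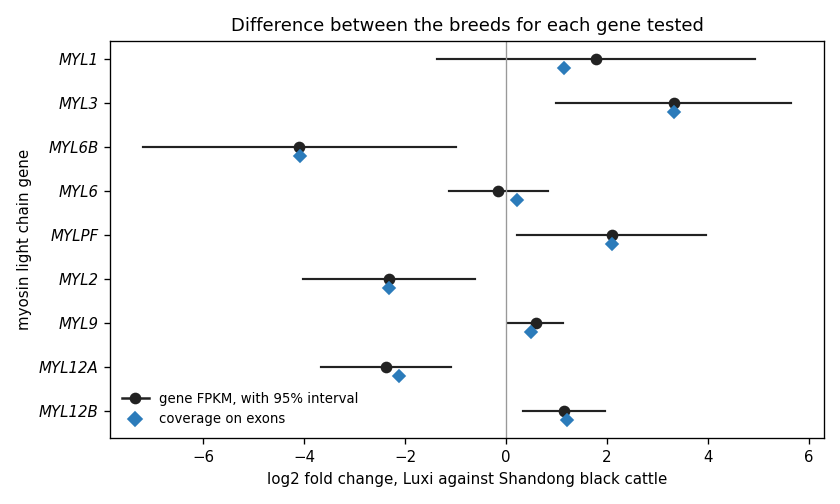
Log2 fold change, Luxi against Shandong black cattle, of the 9 light chain genes tested, with circles and 95% intervals from gene FPKM and diamonds from the coverage on exons. The intervals of MYL1 and MYL6 span 0, and MYL6B has the largest negative difference at -4.10.

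Markers of fat cells and fibroblasts held genes that were called. Of the 5 adipocyte markers 4 were called lower in Luxi cattle, namely FABP4, PLIN1, CIDEC and ADIPOQ, and the summed FPKM of the 5 was 109 to 173 in Shandong black cattle and 2.04 to 17.3 in Luxi cattle. Of the 5 fibroblast markers COL3A1 and COL1A2 were called higher, and their list summed to 109 to 159 and 376 to 502 FPKM. Endothelium markers (3 tested, 0 called) summed to 13.5 to 15.0 and 19.7 to 49.5 FPKM, and the blood markers with a value to 1.28 to 1.98 and 1.38 to 2.37. The part of these cells in the levels of MYL6, MYL9, MYL12A and MYL12B was not tested, and in whole tissue fewer cells of a type and less RNA per cell cannot be told apart.

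The light chains act with heavy chains and thin filament proteins of the same fibre type. Of the 9 slow fibre partners tested, 3 were called lower in Luxi cattle and 0 higher: ANKRD2, a stretch-responsive ankyrin repeat protein (log2 fold change -4.74, limma adjusted p = 0.0206), CSRP3, a Z-disc LIM protein (-3.39, 0.0316), and TNNI1, slow troponin I (-2.32, 0.0471). Over all genes tested, 1.02% were called lower and 1.54% higher. All 9 slow partners had a log2 fold change below 0, with a median of -2.17 beside 0.13 over all genes tested. That of MYOZ2, a Z-disc protein of slow fibres, was -2.87. TPM3 and ATP2A2 overlapped between the breeds and were highest of all animals in L1, at 906 and 681 FPKM. In the other 7 the breeds did not overlap, as in 29.1% of all genes tested. The count of 3 called fell to 0 without B1, without B3 or without L2 and to 1 without B2.

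Of the 8 fast fibre partners tested, 0 were called and 5 had an unadjusted p under 0.05, beside 21.8% of all genes tested. All 8 had a log2 fold change above 0, with a median of 1.97 beside 0.13 over all genes tested. The largest were TPM1, a tropomyosin (3.05, limma adjusted p = 0.106), TNNT3, fast troponin T (2.95, 0.101), and ACTN3, the fast fibre actinin (2.24, 0.204). In B2 a same-strand transcript of 61.3 FPKM at the TPM1 locus entered no gene, beside 72.8 FPKM counted. From the coverage on exons TPM1 stood at 1.997 with overlap between the breeds (limma adjusted p = 0.127), below TNNT3 (2.47), ACTN3 (2.24) and MYBPC2 (2.16), and none of these was called. By gene FPKM without L1, 6 of the 8 fast fibre partners were called. Leaving out L1 also raised the count called over all genes from 251 to 597.

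Among 9 heavy chains tested, MYH10, a non-muscle myosin, was called lower (-2.22, limma adjusted p = 0.0491), while MYH2 (3.57, 0.137) and MYH1 (2.86, 0.307), the fast IIa and IIx chains, were not called. The call of MYH10 was lost without B1, B3, L2 or L3. Same-strand transcripts that entered no gene held 84.7 FPKM in B1 and 190.8 in L1 at the MYH1 and MYH2 loci. The FPKM counted there was 0.114 in B1 and 0.903 in L1 for MYH1, and 51.7 and 188 for MYH2. The FPKM fold changes of both genes leave those transcripts out. MYH7, the slow heavy chain, was looked up after its values were seen, since long transcripts left out of every gene covered its locus in B1, B3 and L1. Its FPKM was 280, 2097 and 235 in B1, B2 and B3 and 120, 479 and 289 in L1, L2 and L3 (log2 fold change -1.01, limma adjusted p = 0.542). From the coverage on exons it was 1680, 2528 and 1993 against 316, 372 and 397 per aligned gigabase, with a log2 fold change of -2.50 that was called (limma adjusted p = 0.0142). By that measure MYH1 was also called higher (3.32, limma adjusted p = 0.0372), and MYH2 was not called (3.41, limma adjusted p = 0.144).

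A list of 16 genes held kinases and phosphatase subunits that act on the regulatory chains, calmodulin genes, RHOA and MYLIP. All 16 were tested, 0 were called, and 5 had an unadjusted p under 0.05, beside 21.8% of all genes tested. The median log2 fold change was 0.52, beside 0.13 over all genes tested, and 13 of the 16 were above 0. MYLK3, a myosin light chain kinase known from heart, had an FPKM of 0.164, 0.220 and 0.172 in B1, B2 and B3 and of 24.7, 0.545 and 1.92 in L1, L2 and L3 (2.04, limma adjusted p = 0.247). L1 was far above the rest, and L2 and L3 also lay above all Shandong black animals. CALM3, a calmodulin gene, differed by 1.47 on the log2 scale (limma adjusted p = 0.149). For MYLK4, another kinase of this family, the difference was 1.09 by FPKM (limma adjusted p = 0.342). From the coverage on exons, a measure chosen after the values were seen, it was 2.93 and was called (limma adjusted p = 0.00316). By that measure MYLK4 stood at 0.221, 0.648 and 0.265 in B1, B2 and B3 and 9.85, 11.8 and 7.16 in L1, L2 and L3. Its FPKM was 0.284, 0.774 and 0.352 in B1, B2 and B3 and 8.13, 1.11 and 0.530 in L1, L2 and L3. MYLK3 and MYLK4 passed the filter through Luxi cattle only. The light chain genes MYL5, MYL7 and MYL10 were not analysed here.

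For 4 sarcomeric light chains, the 3 genes with the most similar pattern over the 6 animals were sought by Pearson correlation of log2(FPKM + 1) among the 2176 tested genes whose FPKM averaged 10 or more. For MYL2 these were MYBPC1 (r = 0.995), MYOZ2 (0.995) and FKBP3 (0.991), and for MYLPF they were SMTNL2 (0.998), ENO3 (0.998) and TOB2 (0.996). MYL3 was nearest to IFNGR1 (0.998), SDHAF2 (0.996) and NDUFB3 (0.989). MYL1 was nearest to ITGB5 (0.980), HSD17B10 (0.976) and SF1 (0.976), with the low values of B2 and L1 included. These are descriptions over animals that share breed, supplier and library preparation.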

How the data were processed

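RNA-Seq libraries of longissimus dorsi muscle from 3 Shandong black and 3 Luxi cattle were used, 1 per animal, grouped by the breed in the labels. The authors used Fastp for trimming and HISAT for alignment to ARS-UCD1.2, followed by StringTie (version 1.3.3b per the file headers, another version in the study's Methods) on each library with the NCBI annotation and a setting for stranded reads. They deposited the coverage, FPKM and TPM of each transcript, and coverage of each exon.

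Gene FPKM was the sum over a gene's reference transcripts and those assembled transcripts of the same strand that lay on its exons for 50% of their bases or more (bedtools 2.31.1). Transcripts left out held 21.6 to 29.8% of library FPKM. Aligned gigabases are the ratio of deposited coverage to FPKM. No read counts were used, so no counting error is given and the number of animals limits precision. Genes that averaged 1 FPKM or more in either breed were tested with limma 3.58.1 (R 4.3.3, lmFit, eBayes with trend) on log2(FPKM + 1), which understates changes of low genes, with Benjamini-Hochberg adjustment. Shares and single genes were compared by exact two-sided permutation tests, which cannot go below p = 0.1 here. The procedure was tested on simulated data. The simulation for the limma fit gave each gene the same spread in both breeds, so unequal spreads such as that of MYL6B were not covered.

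Coverage on exons, chosen after seeing the data, is the deposited exon coverage of every same-strand transcript on a gene's exons per aligned gigabase. StringTie's exon and transcript coverage differ for some transcripts, among them one of MYL12A in L2. Members and lists were chosen with earlier results of these data known. Every member, every called gene of a list and the 3 tested genes of each partner list with the largest change are named, and the 3 nearest patterns of MYL1, MYL2, MYL3 and MYLPF. Heart, blood and other marker lists are given by their counts and sums. Gene table names are from RefSeq (ARS-UCD2.0). No sequences are shown. The alternatives were a pseudocount of 0.1, no filter, a mean FPKM of at least 5, TPM, size factors, no trend, reference transcripts only, a replicate block, and leaving out each animal.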

Additional observations from a re-analysis of the deposited data

Results flagged for a closer look

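Signals outside the gene values were seen at the light chain loci. Same-strand transcripts that ran past MYL1 and entered no gene held 250.3 FPKM in B2 and 219.9 FPKM in L1, and the other animals had none above 1 FPKM. Antisense transcripts reached 7.93 FPKM at the MYL1 locus, 8.82 at MYL3, 9.11 at MYLPF and 13.3 at MYL2 in the animal with the most. Over these 4 loci and 6 animals, antisense FPKM was 0.0265 to 2.65% of the FPKM of the gene. Groups of 3 animals are too small for a test of outlying animals.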

How the results depend on the processing

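The direction of MYL1, MYL2, MYL3, MYL6B, MYL9, MYL12A, MYL12B and MYLPF was kept under every alternative run in which the gene was tested, and MYL12B was not tested at a mean FPKM of at least 5. MYL6 turned to 0.29 with reference transcripts only and to 0.23 with coverage on exons, and ranged from -0.62 to 0.10 when each animal was left out. Leaving out each animal moved MYL6B from -5.66 to -2.64, MYLPF from 1.65 to 2.89 and MYL12A from -2.94 to -1.91, and coverage on exons gave MYL12A -2.13. The count of light chain genes called was 1 with coverage on exons and 0 to 2 when each animal was left out. The count over all genes, 251, was 63 with no filter, 134 at a mean FPKM of at least 5 and 163 with reference transcripts only, and 3 to 597 when each animal was left out (10 without B1, 3 without B3, 597 without L1, 46 without L2 and 89 without L3). Heavy chains called, 1 as reported, were 0 with no filter, TPM, no trend or reference transcripts only, 3 with coverage on exons, and 0 to 2 leaving out each animal. Slow partners called were 0 with no filter and 0 to 3 leaving out each animal, fast partners 0 to 6, and kinases and their partners 0 to 1, with 1 by coverage on exons.

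The replicate numbers shared by the breeds mark different animals, so they were not taken as pairs. The deviations of same-numbered animals from their breed means correlated at r = 0.0840, 0.0869 and 0.0745. Those of differently numbered animals correlated at -0.107 to 0.00834, so the same-numbered values were the highest. The source of this was not tested. A replicate block called 135 genes in all, 1 fast partner and 0 light chain genes. The number of animals limits all of these results.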
